A study of Arabidopsis thaliana with 6 samples.

Results

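The WRKY transcription factors of Arabidopsis form a large family of plant regulators. The genes described here are those whose current symbol in a reference gene table is WRKY followed by a number and for which a probe set could be named. Of 67 such genes 24 could be measured, among 14276 measured genes in all, and each was represented by 1 probe set. The platform annotation named 6 of them (WRKY6, WRKY20, WRKY22, WRKY42, WRKY47 and WRKY53), and the other 18 were named only through the study's list of transcripts that responded to H2O2 in another experiment. The 24 genes are therefore no random sample of the family, and the remaining 43, among them WRKY18 and WRKY70, were not analysed here.

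Samples were entire rosettes of wild-type Col-0 plants, labelled as 28 d old and grown in hydroponic culture (the methods speak of leaves or entire shoots and start the treatment at that age), and RNA was hybridized to Affymetrix ATH1 arrays. There were 3 arrays from plants that had received 150 mM NaCl in the medium for 4 d (salt) and 3 from plants kept in medium without added NaCl (control). All plants were of this wild type. The study's methods describe 3 independent biological replications of the experiment and do not say whether salt and control arrays were paired. A rosette holds leaves of different ages, and a difference in such bulk material cannot tell more transcript per cell from more cells that express the gene. Values are log2 expression after robust multiarray averaging (RMA), a difference of 1 is a 2-fold change, and differences are salt minus control.

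WRKY factors bind W-boxes, short DNA elements in promoters of many defence and stress genes, through a conserved domain with a zinc finger, and most WRKY genes carry W-boxes themselves and are controlled by other WRKY factors. They are sorted into groups by the number of these domains (group I has a pair) and by the type of zinc finger (group III differs from groups I and II), with group II divided further into IIa to IIe. In leaves they are known from pathogen defence, salicylic acid signalling and the control of senescence, where WRKY53 is an early regulator that responds to H2O2. Several are phosphorylated by mitogen-activated protein (MAP) kinases or bind VQ proteins, small cofactors named after a short motif.

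The salt arrays resembled each other less (Pearson's r of 0.9803 to 0.9883, computed across probe sets and so only a description) than the control arrays (0.993 to 0.9971), and salt replicate 1 was the farthest from the controls (0.9301 to 0.9395). The probe set for the main ribosomal RNA of the large subunit gave log2 values of 10.24, 9.05 and 9.48 in salt samples and 7.16, 7.20 and 7.84 in control samples, without overlap. As a check of the tissue, the 4 measured leaf markers of photosynthesis, PRK, RCA, LHCB2.3 and SBPASE, had log2 means of 11.12 to 13.32 in salt and 12.49 to 13.58 in control samples, with mean signals at percentile ranks of 98.7 to 99.9 among probe sets. LHCB2.3 fell by 1.44 (SE 0.39) and SBPASE by 1.12 (SE 0.23), with adjusted p-values of 0.038 and 0.016 from limma. The 4 measured root markers (IRT1, EXPA7, CASP1 and NRT2:1) lay at 4.22 to 6.08 in salt and 4.18 to 6.17 in control samples, and none passed the test.

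Of the 24 WRKY genes 12 rose with salt and none fell, where a gene is said to rise or fall if its limma p, adjusted over the 14276 genes by the Benjamini-Hochberg method, was under 0.05. The genes that rose include regulators of senescence (WRKY75, WRKY45, WRKY6 and WRKY53), of camalexin synthesis (WRKY33) and of abscisic acid responses (WRKY40 and WRKY60). Over all genes 11.4% rose and 12.3% fell. For the WRKY genes that the H2O2 list named, the nearer background is the 921 genes named in the same way, of which 36.9% rose, against 9 of 18 WRKY genes. That list holds transcripts that rose and others that fell with H2O2. It was not split by direction here, so this background is not matched in that respect. Of the genes named by the annotation 9.65% rose, against 3 of 6 WRKY genes. Differences of at least 2-fold were found for 11 WRKY genes, all higher with salt, and for 5.32% (higher) and 2.68% (lower) of all genes. Among those named by the H2O2 list, 9 of 18 WRKY genes and 28.4% of the 921 genes were at least 2-fold higher. The median difference of the 24 genes was 0.78 and that of all genes -0.03, and for the genes that the H2O2 list named it was 1.05 over 18 WRKY genes and 0.29 over all 921. The arrays of the groups did not overlap for 14 WRKY genes, all higher with salt, against 18.9% of all genes in this direction. For the H2O2 list these were 10 of 18 WRKY genes and 44.1% of the 921 genes. Of the 5 WRKY genes with a negative difference none had an unadjusted limma p under 0.05, nor did any fall in a test without moderation of the variance, in which WRKY75, WRKY45 and WRKY60 were the 3 that rose. The SD between salt arrays exceeded that between control arrays for 16 of the 24 genes (66.7%, against 74.5% of all genes). The median SD of the 24 genes was 0.394 in salt and 0.245 in control samples. It was lower over all genes (0.156 and 0.0862) and over the 921 genes of the H2O2 list (0.268 and 0.134).

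**Figure D1:**
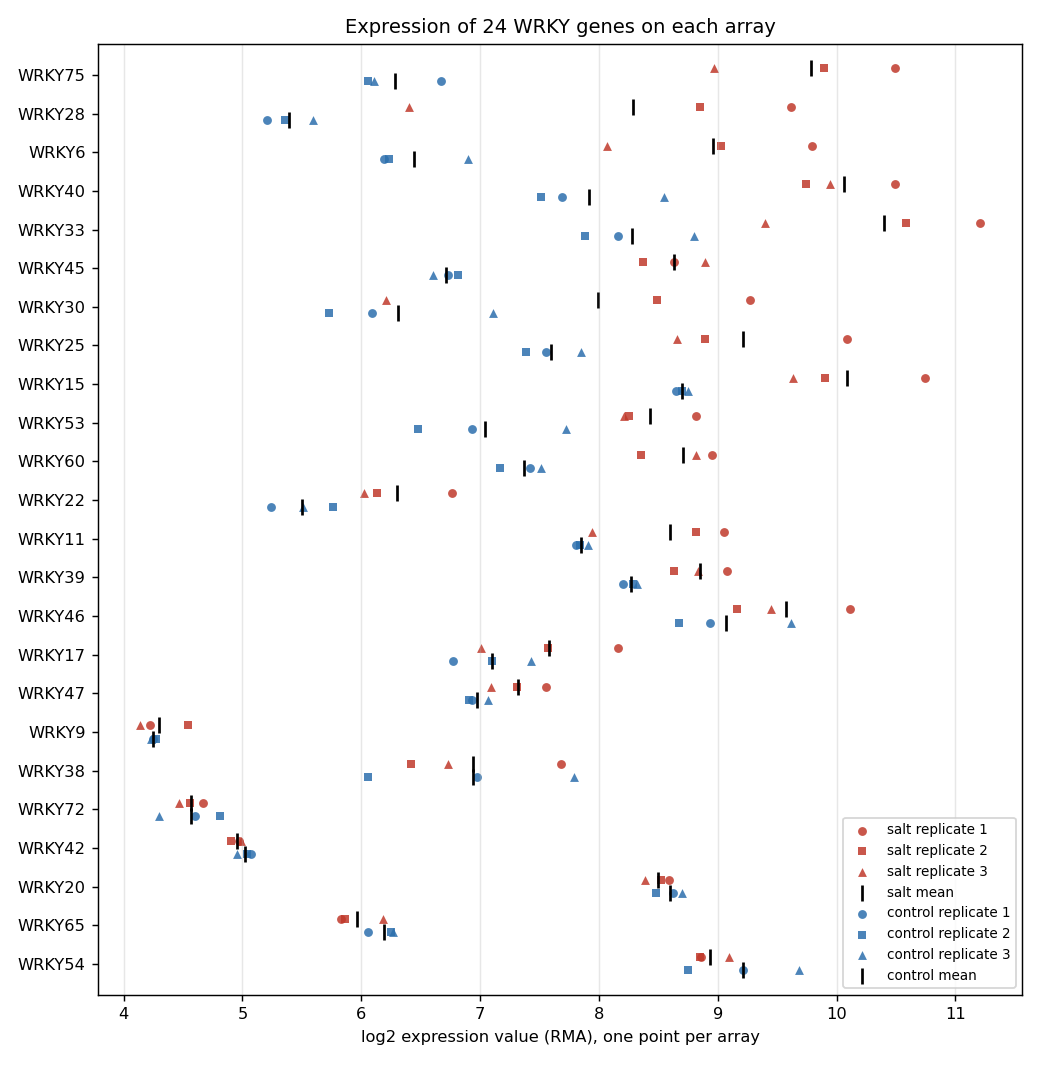
Log2 expression value (RMA, horizontal axis) of the 24 WRKY genes, ordered by their difference between groups, with 1 point per array (salt in red, control in blue, symbols for replicates) and black ticks for group means. The 3 salt arrays lie above the 3 control arrays from WRKY75 (8.97 to 10.49 against 6.06 to 6.67) down to WRKY39, except for WRKY30, and the groups overlap in most of the genes below, WRKY47 excepted.

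WRKY75, which promotes leaf senescence and also takes part in the response to phosphate starvation, had the largest change of the 24. Its log2 values were 10.49, 9.89 and 8.97 on the salt arrays and 6.67, 6.06 and 6.11 on the control arrays. All salt values were more than 2 units above every control value, and the difference was 3.50 (SE 0.37, 95% interval 2.62 to 4.38, adjusted p = 0.0015 from limma), which is 11.3-fold. WRKY45, a close relative that also promotes leaf senescence and acts in phosphate uptake, had 8.63, 8.37 and 8.89 in salt and 6.73, 6.81 and 6.60 in control samples. All salt arrays lay more than 1 unit above the highest control, with an SD of 0.26 (salt) and 0.11 (control), and it had the lowest adjusted p of the 24 at 0.00049 from limma, with a difference of 1.92 (SE 0.14), or 3.78-fold.

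WRKY6, a regulator of senescence and pathogen defence that represses the phosphate exporter gene PHO1, had 9.79, 9.03 and 8.07 in salt and 6.19, 6.23 and 6.9 in control samples. The groups lay apart although salt arrays ranged widely, and WRKY6 rose by 2.52 (SE 0.42, adjusted p = 0.0078 from limma), or 5.75-fold. For WRKY53 the values were 8.82, 8.25 and 8.21 in salt and 6.93, 6.48 and 7.72 in control samples. Control replicate 3 came within 0.5 of the lowest salt array, and the difference was 1.38 (SE 0.32, adjusted p = 0.022 from limma), or 2.61-fold. Without control replicate 1 or 2 the call of WRKY53 was lost (adjusted p = 0.085 and 0.07 from limma).

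The group I genes WRKY33 and WRKY25 rose, and WRKY20 of the same group had -0.10 (95% interval -0.33 to 0.13). WRKY33, required for camalexin synthesis and for resistance to necrotrophic fungi, had 11.21, 10.58 and 9.40 in salt and 8.16, 7.88 and 8.80 in control samples. Its lowest salt array, replicate 3, still lay above its highest control, also replicate 3, and the difference was 2.12 (SE 0.46, adjusted p = 0.018 from limma). WRKY25, which like WRKY33 has been linked to salt and heat tolerance, had 10.09, 8.89 and 8.66 in salt and 7.55, 7.39 and 7.85 in control samples, a difference of 1.62 (SE 0.36, adjusted p = 0.019 from limma). In both genes the groups did not overlap, salt replicate 1 was the highest array and control replicate 3 the highest control. Neither call held without control replicate 1 or without control replicate 2 (adjusted p of 0.071 to 0.08 from limma).

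Both measured members of group IIa rose. Together with WRKY18 their products form complexes and act in defence and abscisic acid responses. WRKY40 had log2 values of 10.49, 9.74 and 9.94 in salt samples, against 7.69, 7.51 and 8.55 in control samples, with all salt arrays more than 1 unit above the highest control and a difference of 2.14 (SE 0.30, adjusted p = 0.0044 from limma). In WRKY60 the salt arrays read 8.95, 8.35 and 8.82 and the control arrays 7.42, 7.17 and 7.51, again without overlap, a difference of 1.34 (SE 0.17, adjusted p = 0.0032 from limma). Both calls held when any 1 array was left out.

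WRKY28, an activator of the salicylic acid synthesis gene ICS1, and WRKY30, a stress-induced gene whose product binds WRKY53, had the widest spread between salt arrays. WRKY28 read 9.62, 8.85 and 6.40 in salt and 5.21, 5.36 and 5.59 in control samples. Its control mean of 5.39 was a low signal, below 5.45, the 30th percentile of probe set means. Salt replicate 3 lay far below the other salt arrays and yet above all controls, and the difference was 2.90 (SE 0.74, 95% interval 1.15 to 4.65, adjusted p = 0.031 from limma). This call was lost when any of the controls or salt replicate 1 or 2 was left out (adjusted p of up to 0.1 from limma). The difference was 2.24 without salt replicate 1 and 3.85 without salt replicate 3 (adjusted p = 0.00064 from limma). WRKY30 read 9.27, 8.49 and 6.21 in salt and 6.09, 5.73 and 7.11 in control samples. Here salt replicate 3 lay among the controls, and the difference of 1.68 did not pass (SE 0.76, 95% interval -0.12 to 3.48, adjusted p = 0.16 from limma). Without salt replicate 3 it was 2.57 (adjusted p = 0.014 from limma). With any other 1 array left out WRKY30 did not pass (adjusted p of 0.16 to 0.38 from limma).

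In group IId, whose proteins bind calmodulin, WRKY15 and WRKY39 rose. WRKY15, which lowers tolerance to salt and osmotic stress when overexpressed, had 10.74, 9.90 and 9.63 in salt and 8.65, 8.70 and 8.75 in control samples. The controls were nearly equal and all salt arrays lay above them, with a difference of 1.39 (SE 0.26, adjusted p = 0.012 from limma). WRKY39, which takes part in the heat response, had 9.08, 8.63 and 8.83 in salt and 8.2, 8.29 and 8.32 in control samples. The groups did not overlap, and its difference of 0.58 (SE 0.12, adjusted p = 0.018 from limma) was the smallest of those that passed, a 1.49-fold change. WRKY11 and WRKY17, a pair of negative regulators of basal resistance, did not pass. WRKY11 had 9.05, 8.82 and 7.94 in salt and 7.81, 7.84 and 7.91 in control samples, salt replicate 3 being barely above the controls. Its difference was 0.75 (SE 0.27, adjusted p = 0.085 from limma), and without salt replicate 3 it passed, with 1.08 (adjusted p = 0.0022 from limma). With any other 1 array left out WRKY11 did not pass (adjusted p of 0.16 to 0.21 from limma). WRKY17 had 8.16, 7.57 and 7.01 in salt and 6.77, 7.10 and 7.43 in control samples, with overlapping groups and a difference of 0.48 (95% interval -0.22 to 1.18).

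WRKY15 did not pass without control replicate 1 or 2 (adjusted p = 0.052 and 0.053 from limma), and WRKY39 did not pass when any 1 of the controls was left out (adjusted p of up to 0.08 from limma). WRKY22 of group IIe, which acts in MAP kinase signalling during defence and in dark-induced senescence, had 6.76, 6.13 and 6.02 in salt and 5.24, 5.76 and 5.51 in control samples. The groups lay close together without overlap, with a difference of 0.80 (SE 0.22, adjusted p = 0.039 from limma). The control mean of WRKY22, 5.50, was close to 5.45, the 30th percentile of probe set means. The call of WRKY22 was lost when any 1 of the controls or salt replicate 2 was left out (adjusted p of up to 0.14 from limma). Its relative WRKY65 had -0.24 (95% interval -0.52 to 0.05).

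WRKY53 was the only 1 of the 5 measured group III genes that passed. WRKY46, which responds to osmotic stress and acts in the guard cells, had 10.11, 9.16 and 9.45 in salt and 8.93, 8.67 and 9.62 in control samples, with control replicate 3 above 2 of the salt arrays and a difference of 0.50 (SE 0.31, adjusted p = 0.29 from limma). WRKY54, which together with WRKY70 delays senescence, had 8.86, 8.85 and 9.09 in salt and 9.21, 8.75 and 9.68 in control samples. The groups overlapped, and this was the lowest difference of the measured members, -0.28 (SE 0.22, 95% interval -0.81 to 0.25, adjusted p = 0.42 from limma). WRKY38, a repressor of basal defence, had 7.68, 6.42 and 6.73 in salt and 6.97, 6.06 and 7.79 in control samples. Its group means were equal to 2 decimals (6.94 in both, SE of the difference 0.48), but the interval of -1.13 to 1.13 includes changes of 2-fold in either direction.

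The remaining members without a call belonged to group IIb. WRKY47 had 7.55, 7.31 and 7.09 in salt and 6.93, 6.91 and 7.07 in control samples, a difference of 0.35 (SE 0.13, adjusted p = 0.097 from limma), and it passed without salt replicate 3 (0.46, adjusted p = 0.034 from limma). WRKY42, which like WRKY6 represses PHO1, had -0.07 (95% interval -0.25 to 0.12), WRKY9 had 0.05 (-0.23 to 0.33) and WRKY72, a gene of basal immunity, had 0.00 (-0.33 to 0.33). The means of these 3 genes over all arrays were below 5.45, the 30th percentile of all probe sets.

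**Figure D2:**
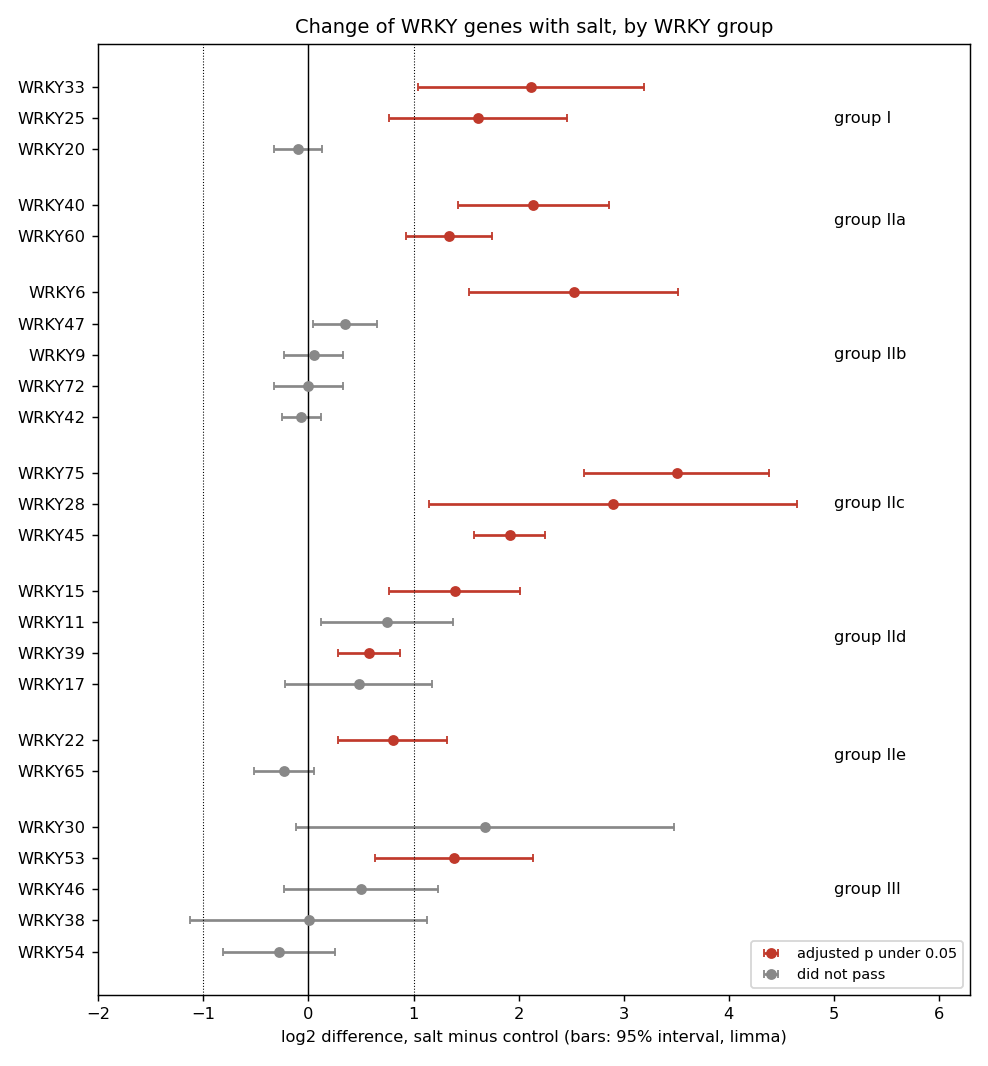
Log2 difference between salt and control (horizontal axis, with 95% intervals from limma) of the 24 WRKY genes, arranged by WRKY group. Genes with an adjusted p under 0.05 are red and the others grey, and dotted lines mark 2-fold changes. All 3 measured group IIc genes and both of group IIa are red, against 1 of 5 in group IIb (WRKY6) and 1 of 5 in group III (WRKY53). In group IIb, WRKY42, WRKY9 and WRKY72 had mean signals below the 30th percentile of probe sets. In group III control arrays varied widely (median SD 0.628).

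Arranged by structure, 3 of 3 measured genes rose in group IIc (WRKY75, WRKY28 and WRKY45, median difference 2.90), 2 of 2 in group IIa (1.74), 2 of 3 in group I (1.62), 2 of 4 in group IId (0.66), 1 of 2 in group IIe (0.28), 1 of 5 in group III (0.50) and 1 of 5 in group IIb (0.05). Over all genes 11.4% rose, and of those named through the H2O2 list 36.9%. In group IIb, WRKY42, WRKY9 and WRKY72 had mean signals below the 30th percentile of probe sets, which limits what can be called there. In group III the spread between control arrays was wide, with a median SD of 0.628 against 0.245 over the 24 genes. There 2 of 5 genes were at least 2-fold higher, of which WRKY30 did not pass, so that 1 of 5 does not show a weak response. In group IIc, the call of WRKY28 was lost when any control or salt replicate 1 or 2 was left out. With so few members a group, and members chosen mostly by their response to H2O2, these counts describe the measured genes alone. The gene ZAP1, also known as WRKY1, falls outside the naming rule. It had log2 values of 9.14, 9.01 and 9.09 in salt and 8.61, 8.48 and 8.64 in control samples, and it rose by 0.50 (SE 0.09, adjusted p = 0.0082 from limma).

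Close relatives were compared within arrays, as the change of 1 gene minus the change of the other, in 5 pairs chosen with the values known. The intervals of the pairs are t intervals from the pooled variance of both groups, without moderation, unlike the limma intervals elsewhere. The difference was 2.59 for WRKY6 minus WRKY42 (95% interval 1.0 to 4.18), but the signal of WRKY42 lay below the 30th percentile, and no unequal response of this pair is read from it. WRKY75 changed by 1.59 more than WRKY45 (-0.03 to 3.20) and WRKY40 by 0.80 more than WRKY60 (0.04 to 1.56). For these 3 pairs the within-array difference was larger on every salt array than on every control array, and the exact two-sided permutation p of 0.1 is the smallest that 3 arrays against 3 can give (0.1667 after Benjamini-Hochberg adjustment over the 5 pairs). WRKY33 and WRKY25 differed by 0.50 (-0.36 to 1.36, exact permutation p = 0.2) and WRKY11 and WRKY17 by 0.27 (-0.28 to 0.82, exact permutation p = 0.3). The permutation test cannot reach 0.05 with 3 arrays against 3.

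Within a group, the same array was the highest for most of the WRKY genes. Salt replicate 1 was the highest salt array for 19 of the 24 genes, against 36.4% of all genes and 57.4% of those named through the H2O2 list. Salt replicate 3 was the lowest for 15 (62.5%), against 33.7% of all genes and 48% of the genes of the H2O2 list. Among controls, replicate 3 was the highest for 18, against 33% of all genes and 43.6% of the genes of the H2O2 list. The median deviation of the 24 genes from their group mean was 0.44 on salt replicate 1, -0.07 on replicate 2 and -0.21 on replicate 3, and -0.05, -0.09 and 0.12 on the control arrays.

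**Figure D3:**
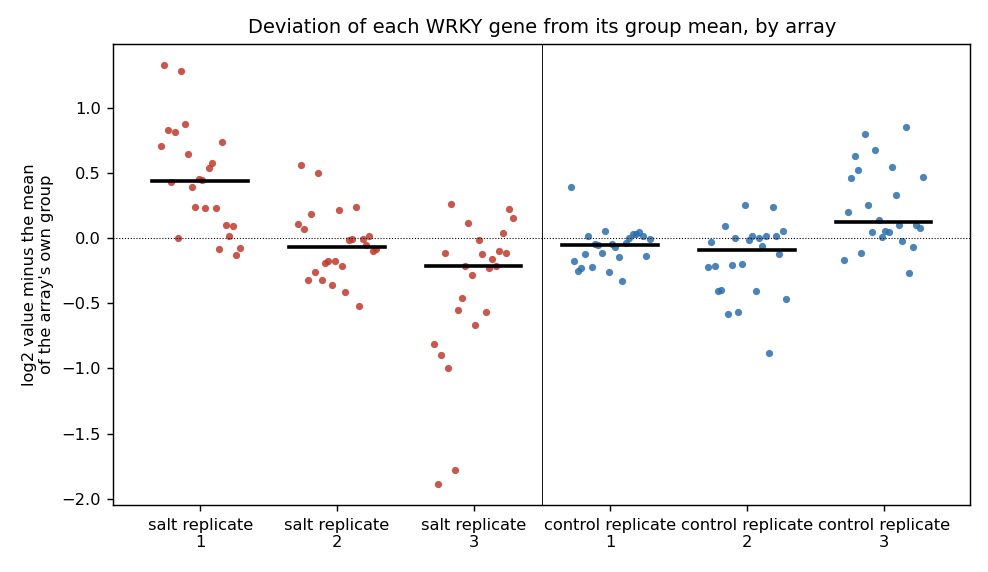
Deviation of each WRKY gene from the mean of its own group (vertical axis, log2) on the 3 salt arrays (red) and the 3 control arrays (blue), with 1 point per gene and black lines at the medians. Most genes lie above 0 on salt replicate 1 (median 0.44) and on control replicate 3 (median 0.12), and the lowest points on salt replicate 3 are WRKY28 and WRKY30.

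Other signals also differed between arrays, not all in the same order as the WRKY genes. Within the groups, the ribosomal RNA signal of the large subunit was highest on the 2 arrays that were highest for most WRKY genes. It read 10.24 on salt replicate 1 and 7.84 on control replicate 3. The 5S ribosomal RNA signal did not follow this order, with 5.29, 5.04 and 6.71 in salt and 6.99, 6.60 and 5.90 in control samples. Of the signs of RNA quality, the log2 signal of the 3′ minus the 5′ probe set was 3.36 to 3.66 in salt and 3.11 to 3.23 in control samples for actin, and 0.07 to 0.37 in salt and 0.39 to 0.45 in control samples for GAPDH, so that the groups did not overlap and lay in opposite order for the 2 genes. SBPASE, a leaf marker of the Calvin cycle, read 10.84 on salt replicate 1 against 11.86 and 11.39 on the other salt arrays, and 12.44 to 12.54 on the controls. JAZ10, a gene that jasmonate and wounding induce, had 8.56, 12.28 and 7.67 in salt and 7.14, 6.67 and 11.02 in control samples, so that it was high on control replicate 3 but, within the salt group, on replicate 2. The part of these differences between arrays and groups in the WRKY values was not tested. Without salt replicate 1 the count of WRKY genes that rose was 11, and without control replicate 3 it was 9. It was 5 without control replicate 1 and 5 without control replicate 2, and each time the genes kept were WRKY75, WRKY45, WRKY60, WRKY40 and WRKY6. Over all genes the count of rises without either of these controls was also lower, with 837 and 845, against 1629 with all arrays.

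Genes that work with WRKY factors were taken from lists of MAP kinases, VQ proteins, other regulators and target genes. Of 48 listed genes 19 were measured, 17 of them named through the H2O2 list. Of these 19 genes 14 rose and none fell, with none of the negative differences under an unadjusted limma p of 0.05, and the median difference was 1.31 (-0.03 over all genes). Without moderation of the variance none of the 14 passed. As for the WRKY genes, the nearer background is the 921 genes of the H2O2 list, of which 36.9% rose, with a median difference of 0.29. Over all genes 11.4% rose. None of the 10 listed regulators and partners, such as WHY1 and UPL5, was measured.

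All 3 measured kinases were named through the H2O2 list, of whose genes 36.9% rose. MPK11 rose by 1.997 (SE 0.34) and MKK9 by 0.90 (SE 0.16), and MPK3, which phosphorylates WRKY33, had 0.13 (95% interval -0.35 to 0.61). MPK11 had 9.43, 8.97 and 8.65 in salt and 6.89, 6.45 and 7.72 in control samples, and adjusted p-values from limma were 0.0081 (MPK11) and 0.0087 (MKK9). Among VQ proteins, 4 genes were measured, 3 of them named through the H2O2 list, and 3 rose. These were JAV1 (AT3G22160), a repressor of jasmonate defence, with 1.60 (SE 0.24), SIB1, a cofactor of WRKY33, with 1.10 (SE 0.29) and MKS1, which links MPK4 to WRKY33, with 0.89 (SE 0.19). IKU1, known from seed development, had -0.03. The call of SIB1 was lost without control replicate 1 or 2 or salt replicate 1 or 2 (adjusted p of up to 0.1 from limma), and that of MKS1 without control replicate 1 or 2 (up to 0.077).

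Of 22 listed targets 12 were measured, 11 of them named through the H2O2 list, and 9 rose. Of the genes of that list 36.9% rose, and 11.4% of all genes. Genes that WRKY33 activates were among the targets that rose. ACS2, an ethylene synthesis gene, had 10.31, 10.07 and 8.75 in salt and 6.86, 6.60 and 6.63 in control samples, and its difference of 3.01 (SE 0.38, adjusted p = 0.0028 from limma) was the largest of the list. CYP71A13 and CYP71A12, cytochrome P450 genes of indolic defence compounds, rose by 2.48 (SE 0.46) and 2.28 (SE 0.38). They are close copies of each other, so that their probe sets may share signal. ACS6 rose by 2.097 (SE 0.32) and PAD3, the last enzyme of camalexin synthesis, by 1.97 (SE 0.37). The other members that passed, named after their values were seen, were AOX1A (1.93), FRK1 (1.46), PR1 (1.31) and CBP60G (1.05). PHO1, which WRKY6 and WRKY42 repress, had -0.18 (95% interval -0.52 to 0.17), with overlapping groups, and JAZ10 had 1.23 (-2.30 to 4.75). PAD3 did not pass without control replicate 1, CYP71A13 without control replicate 2, CBP60G without either of them, and FRK1 without control replicate 1 or 3 or salt replicate 2 (adjusted p of 0.053 to 0.078 from limma).

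**Figure D4:**
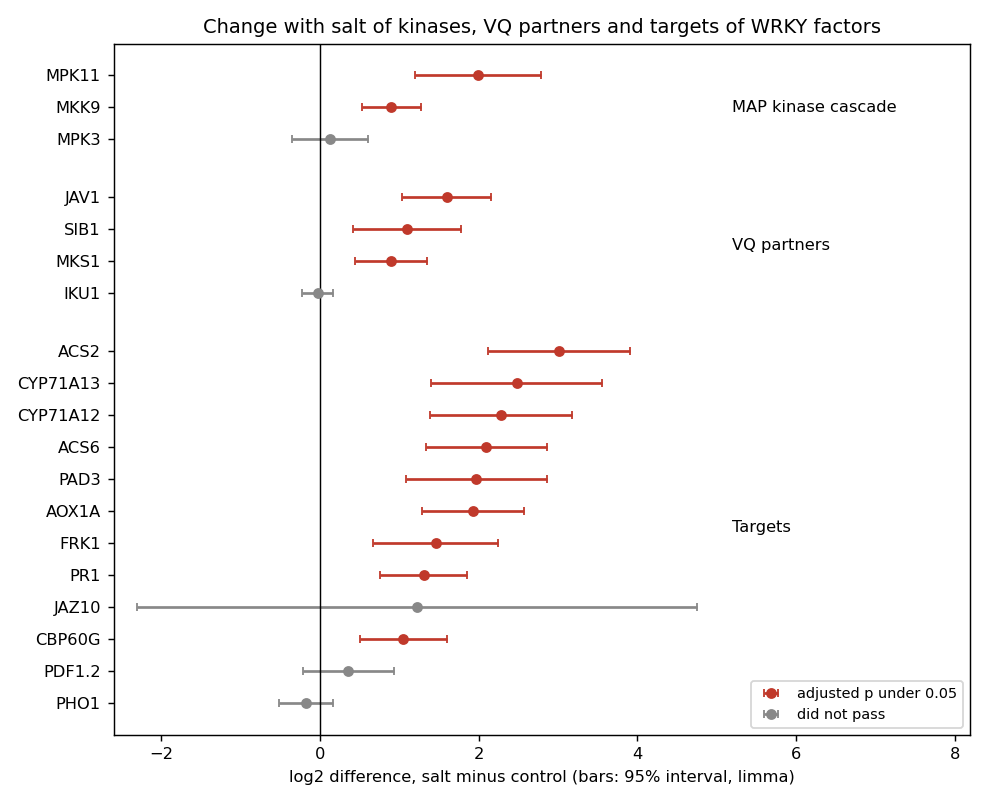
Log2 difference between salt and control (horizontal axis, with 95% intervals from limma) of the measured MAP kinases, VQ proteins and targets of WRKY factors. Red genes passed at an adjusted p of 0.05 (2 of 3, 3 of 4 and 9 of 12) and grey genes did not, among them PHO1 with -0.18 and JAZ10 with the widest interval. Most of these genes were named through the H2O2 list, of which 36.9% rose (11.4% of all genes).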

How the data were processed

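RNA of 3 salt-treated and 3 control samples was hybridized to ATH1 arrays by the authors, who summarized each probe set by RMA and deposited the values on the log2 scale. Bioconductor and limma are named in the methods (versions not given in the sources used here), and GCRMA stands beside RMA in the labels with no stated use. Background correction was not repeated. Of 22746 probe sets other than controls, the platform annotation gave 13513 a single gene, with 13436 symbols brought up to date from RefSeq names of assembly TAIR10.1. The study's list of H2O2-responsive transcripts (1995 rows used) named 921 more. A gene with several probe sets was represented by that with the highest mean, leaving 14276 genes.

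The groups were set against each other in limma (lmFit and eBayes, no block), with Benjamini-Hochberg adjustment across the 14276 genes, and this step was tested on simulated data. WRKY groups follow the common classification and were not checked against protein sequences. Array values are given for WRKY genes that passed, for the 6 with the largest differences among the others, for WRKY38 (chosen after its values were seen) and for a few leading genes of each list. Up to 5 genes that passed and 2 that did not were to be named from a list, and others complete small counts. Members, lists and pairs were chosen with earlier results of these data known. The alternatives were quantile normalization, centring of each array on its median, array weights, a trended and robust eBayes, no moderation at all, a replicate block, and leaving out each array. Others were minimum mean signals at the 30th or 50th percentile, adjustment over all probe sets, the lowest probe set of a gene, and names from the annotation only. Arrays give no counts, so that precision is limited by how many arrays there were. Software comprised limma 3.58.1 under R 4.3.3, and matplotlib 3.10.9, scipy 1.17.1, numpy 2.4.6 and pandas 2.3.3 under Python 3.11.15.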

Additional observations from a re-analysis of the deposited data

How the results depend on the processing

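No WRKY gene fell under any of the 17 alternatives. The count of WRKY genes that rose was 5 to 15 with 1 array left out, 3 in an unmoderated test (WRKY45, WRKY60 and WRKY75) and 3 of 6 with annotation names alone, against 12. With these names, 2 WRKY genes differed by 2-fold or more, against 11. The median difference was 0.55 to 1.01 with 1 array left out and 1.34 and 1.36 with filters at the 30th and 50th percentile, which leave 21 and 18 genes, against 0.78. For the partner and target lists the count of rises was 9 to 14 with 1 array left out and 0 in the unmoderated test, against 14. With annotation names alone it was 0, but only PDF1.2 and IKU1 were then left, neither of which was called with all names, so that this 0 says nothing about the 14. Same-numbered arrays did not deviate together (r of -0.12, 0.05 and -0.14 across genes), and with the replicate number as a block 11 WRKY genes rose, WRKY22 (0.80, adjusted p = 0.085 from limma) being the exception. Among the genes named, signs turned only for those without a call. With 1 array left out, the difference was -0.138 to 0.117 for WRKY72, -0.437 to 0.428 for WRKY38, -0.070 to 0.130 for WRKY9, -0.020 to 0.300 for MPK3, -0.162 to 2.598 for JAZ10 and -0.068 to 0.017 for IKU1. WRKY72 had 0.009 with quantile normalization, and WRKY38 had -0.009 with quantile normalization, -0.020 with median centring and -0.127 with array weights. Over all genes, the unmoderated test called 581 higher and 333 lower. The cause of these shifts was not tested. WRKY11 also passed with array weights (adjusted p = 0.026 from limma). With 3 arrays per group, the spread between arrays limits which changes can be called.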
